A study of Homo sapiens with 12 samples.

Results

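The 50 genes described here encode proteins that drive or carry out mitosis: cyclins and CDK1, the mitotic kinases, the spindle checkpoint, the anaphase-promoting complex partners, kinetochore proteins, kinesins, spindle microtubule proteins and chromosome structure proteins. They were listed by name, with earlier results of these data known, and every probe set that the platform annotation gives to one of them alone was taken. All 50 had at least 1 such probe set, and together they had 83 of the 22283 probe sets of the HG-U133A array, which names 11963 genes in this way. The samples came from A549, a lung adenocarcinoma line of epithelial type, and from 143BTK-, a thymidine kinase-deficient osteosarcoma line. Of each line, rho0 cells, depleted of mtDNA, were compared with their rho+ parents on 3 arrays a group, 12 in all. The rho0 cells had been kept for 3 weeks in 50 ng/ml ethidium bromide, a DNA intercalator that blocks mtDNA replication, and were pooled with no selection of clones, so that each rho0 group is 1 mixed population. Absence of mtDNA was checked 1 week after the drug was removed. Cells of both states were then frozen, revived and grown further before RNA was taken. According to the study, a PCR check for mtDNA also preceded each experiment. Cells of all 4 groups grew in high glucose medium with 10% serum, 1 mM pyruvate and 50 µg/ml uridine. The rho+ cells thus had the supplements of the rho0 cells but no ethidium bromide treatment. Loss of mtDNA and past exposure to the drug cannot be told apart.

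Mitotic genes are transcribed late in the cell cycle. The transcription factors B-MYB (MYBL2) and FOXM1 switch them on in G2, often through the cell cycle genes homology region (CHR) of their promoters, and the same element serves repression in resting cells. NF-Y binds the CCAAT boxes that many of these promoters hold. CDK1 with cyclins A and B then starts mitosis, the Aurora and Polo kinases build the spindle, and the checkpoint restrains CDC20 until every chromosome is attached. In cultures these transcripts are widely used as a measure of proliferation.

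The promoters show what the set shares beyond function. A promoter was given by RefSeq (GRCh38.p14) for 43 of the 50 genes, with no entry for AURKA, BIRC5, BUB3, FOXM1, TPX2, TTK and UBE2C. The 250 bases before the start of transcription were searched on both strands for the CCAAT box, which is ATTGG when read on the other strand. The letters taken for a CHR were TTTGAA, read as TTCAAA on the other strand, and the palindrome TTCGAA. The CCAAT box stood in 31 of the 43 windows (72.1%), against 34.5% of the windows of 15842 protein-coding genes. The CHR letters stood in 22 (51.2%, against 11.9% of all), and both stood in 18 (41.9%, against 4.63%). Of the 9 genes with a probe set that fell in A549 (below), 7 had a promoter, and CCAAT stood in 5 of these and the CHR letters in 4. Among the other 36 genes with a promoter the numbers were 26 and 18, so the share with CCAAT was 71.4% in the former and 72.2% in the latter. A match of letters is no evidence that a factor binds. The stretches of the 5 genes that fell and hold a motif are shown first, with PLK1 and CDC20 as members that hold both motifs and did not pass the test. They lie at chr1:154974432-154974674 (plus strand) for CKS1B, chr9:89311029-89311189 (plus) for CKS2, chr15:90994536-90994606 (minus) for PRC1, chr10:60778152-60778203 (plus) for CDK1, chr17:8210356-8210396 (minus) for AURKB, chr16:23678798-23678883 (plus) for PLK1 and chr1:43358785-43358948 (plus) for CDC20. Each is written 5′ to 3′ on the strand of its gene, and capitals mark the motifs.
CKS1B: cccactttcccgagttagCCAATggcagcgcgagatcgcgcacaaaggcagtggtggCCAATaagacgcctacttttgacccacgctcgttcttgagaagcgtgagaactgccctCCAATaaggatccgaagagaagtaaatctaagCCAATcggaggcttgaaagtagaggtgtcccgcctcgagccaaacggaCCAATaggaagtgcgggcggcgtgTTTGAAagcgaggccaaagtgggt
CKS2: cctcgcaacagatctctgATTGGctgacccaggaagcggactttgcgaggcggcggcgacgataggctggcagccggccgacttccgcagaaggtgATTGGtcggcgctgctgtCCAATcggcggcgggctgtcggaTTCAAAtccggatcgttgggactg
PRC1: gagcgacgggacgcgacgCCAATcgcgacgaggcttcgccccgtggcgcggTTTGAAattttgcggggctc
CDK1: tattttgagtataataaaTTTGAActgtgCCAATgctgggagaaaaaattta
AURKB: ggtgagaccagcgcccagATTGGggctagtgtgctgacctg
PLK1: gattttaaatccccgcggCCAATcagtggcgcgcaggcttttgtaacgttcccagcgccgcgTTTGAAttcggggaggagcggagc
CDC20: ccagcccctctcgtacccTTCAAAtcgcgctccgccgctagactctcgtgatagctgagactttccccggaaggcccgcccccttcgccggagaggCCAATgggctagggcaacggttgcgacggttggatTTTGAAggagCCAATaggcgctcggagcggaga
CKS1B held 5 CCAAT boxes and 1 CHR match, the latter 30 bases before the start, and CKS2 held 3 and 1, with the CHR match 29 bases before the start. The CHR match of PLK1 also lay 29 bases before the start and that of PRC1 20 bases, whereas in CDK1 it lay 161 bases before it. In CDC25B and SMC2, which fell in A549 too, neither motif was found in the window.

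The values are array signals, normalized by the authors within each line, so levels are compared between the states of a line and not between lines or between probe sets. A probe set was tested in a line when it was among the brightest there, up to the number that the study had kept: 71 of the 83 probe sets (49 genes, all but CENPE) in A549, and 77 (50 genes) in 143BTK-. Changes are log2 of rho0 over rho+, tested with limma, and a gene is said to have fallen or risen where the p adjusted over all tested probe sets of the fit was under 0.05. Where a gene has several probe sets, the brightest stands for it in counts of genes. The markers of the labelled cell types did not separate the lines by the number kept. Of 9 epithelial markers on the array, 7 were kept in A549 (EPCAM and CLDN4 were not) and 6 in 143BTK-, and of 10 mesenchymal and bone markers 7 were kept in 143BTK- (COL1A2, PDGFRB and RUNX2 were not) and 6 in A549. Signals were summed over all markers on the array, kept or not. For the 9 epithelial markers in A549 the sum was 14400 to 16910 on the rho+ arrays and 5284 to 8982 on the rho0 arrays. Of the 7 kept there, 5 fell (CDH1, CEACAM6, KRT8, KRT18 and KRT19). These markers thus moved with the mitotic genes in that line, and their part in the results below was not tested. The 10 mesenchymal and bone markers summed in A549 to 415.6 to 437.5 in rho+ and 238.3 to 347.9 in rho0. In 143BTK- they summed to 1173 to 1235 in rho+ and 1502 to 1801 in rho0. The 9 epithelial markers summed there to 4244 to 5194 in rho+ and 3008 to 5064 in rho0. Most of it came from KRT18, with mean signals of 4570 in rho+ and 3524 in rho0.

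The arrays of a group differed among themselves in the level of mitotic genes, in A549 above all. The median deviation of the 49 genes from their mean over the 6 A549 arrays was 0.14, 0.26 and 0.92 (log2) on the rho+ arrays A, B and C, and -0.49, -0.98 and 0.32 on the rho0 arrays A, B and C. Array rho+ C was the highest of the 6 for 39 of 49 genes, and rho0 B was the lowest for 41. Array rho0 C lay above rho0 A and rho0 B for all 49 genes. Against the rho+ arrays it was lower than A for 19 genes, than B for 24 and than C for 43, whereas rho0 A and rho0 B were lower than any rho+ array for at least 43 of the 49. Over all kept probe sets the median of the differences between any 2 arrays of a line was at most 0.037 (log2). As the arrays of a line had been normalized together, a small value was bound to arise. Thus the lower level of the set in A549 rho0 was seen on 2 of the 3 rho0 arrays when the comparison was with rho+ A or B. On array rho+ C the 3′ to 5′ signal ratio of the ACTB control probe sets, a measure of RNA integrity, was 8.81, against 1.43 to 2.83 on the other A549 arrays. The GAPDH ratio was 0.881 to 1.34 on all 6, and the part of RNA integrity in the levels was not tested beyond leaving that array out. In 143BTK- the median deviations were smaller, at 0.15, 0.16 and -0.13 on the rho+ arrays and 0.13, -0.33 and -0.0004 on the rho0 arrays, and rho0 B was the lowest for 22 genes.

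**Figure D1:**
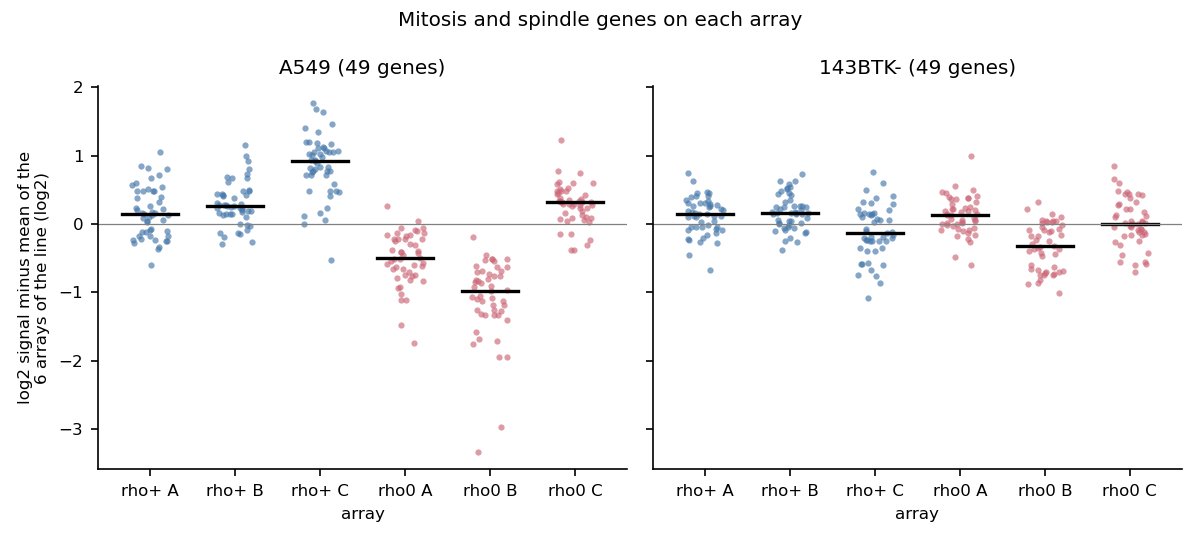
Deviation of each of 49 mitosis and spindle genes (brightest probe set, points) from its mean log2 signal over the 6 arrays of the line, by array, for A549 (left) and 143BTK- (right). The y axis is in log2 units and black bars are medians; in A549 they run from -0.98 on rho0 B to 0.92 on rho+ C, with rho0 C at 0.32, and in 143BTK- from -0.33 to 0.16.

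In A549 the mitotic genes were lower in rho0 cells nearly throughout, and a minority passed the test. More of them passed in a fit with the replicate letter (A, B or C) as a block, which is given at the end. The study drew up a cell cycle category on these same samples, so the direction of these genes is not independent evidence. Apart from the arrays, the study counted cells and reported longer doubling times for rho0 than for rho+ cells in both lines. Of the 71 probe sets, 67 had a change below 0 (94.4%, against 50.3% of all probe sets tested), and 25 changed by -1 or less on the log2 scale (35.2%, against 5.33%). The median change of the 49 genes was -0.86, while that of all tested probe sets was -0.003. The probe sets that fell were 9 of 71 (12.7%, where 5.20% of all tested probe sets fell), and 0 rose (5.66% of all). At an unadjusted p under 0.05 (limma) the counts were 32 lower and 1 higher, and the share of all tested probe sets at that cut is not given here. The 9 probe sets belong to 9 genes: FOXM1, CKS1B, CKS2, CDC25B, CDK1, AURKB, BIRC5, PRC1 and SMC2. For 6 of them the brightest probe set fell, which is 6 of 49 genes, and for CDK1, BIRC5 and SMC2 another one. All 3 rho0 arrays lay below all 3 rho+ arrays for 21 of 71 probe sets (29.6%, against 16.1% of all), in 19 genes. They lay above for 1 probe set, of BUB3 (1.41%, against 15.8% of all). RNA was measured in bulk, so that fewer cells in mitosis and less of these transcripts per cell cannot be told apart. Leaving out array rho0 A or rho0 B brought the count that fell from 9 to 4, leaving out rho+ B or rho+ C to 5, and leaving out rho0 C raised it to 25. The share of all probe sets that fell without the same array is not given here. The median change of the genes was -0.57 without rho0 B, -0.68 without rho+ C and -1.17 without rho0 C.

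**Figure D2:**
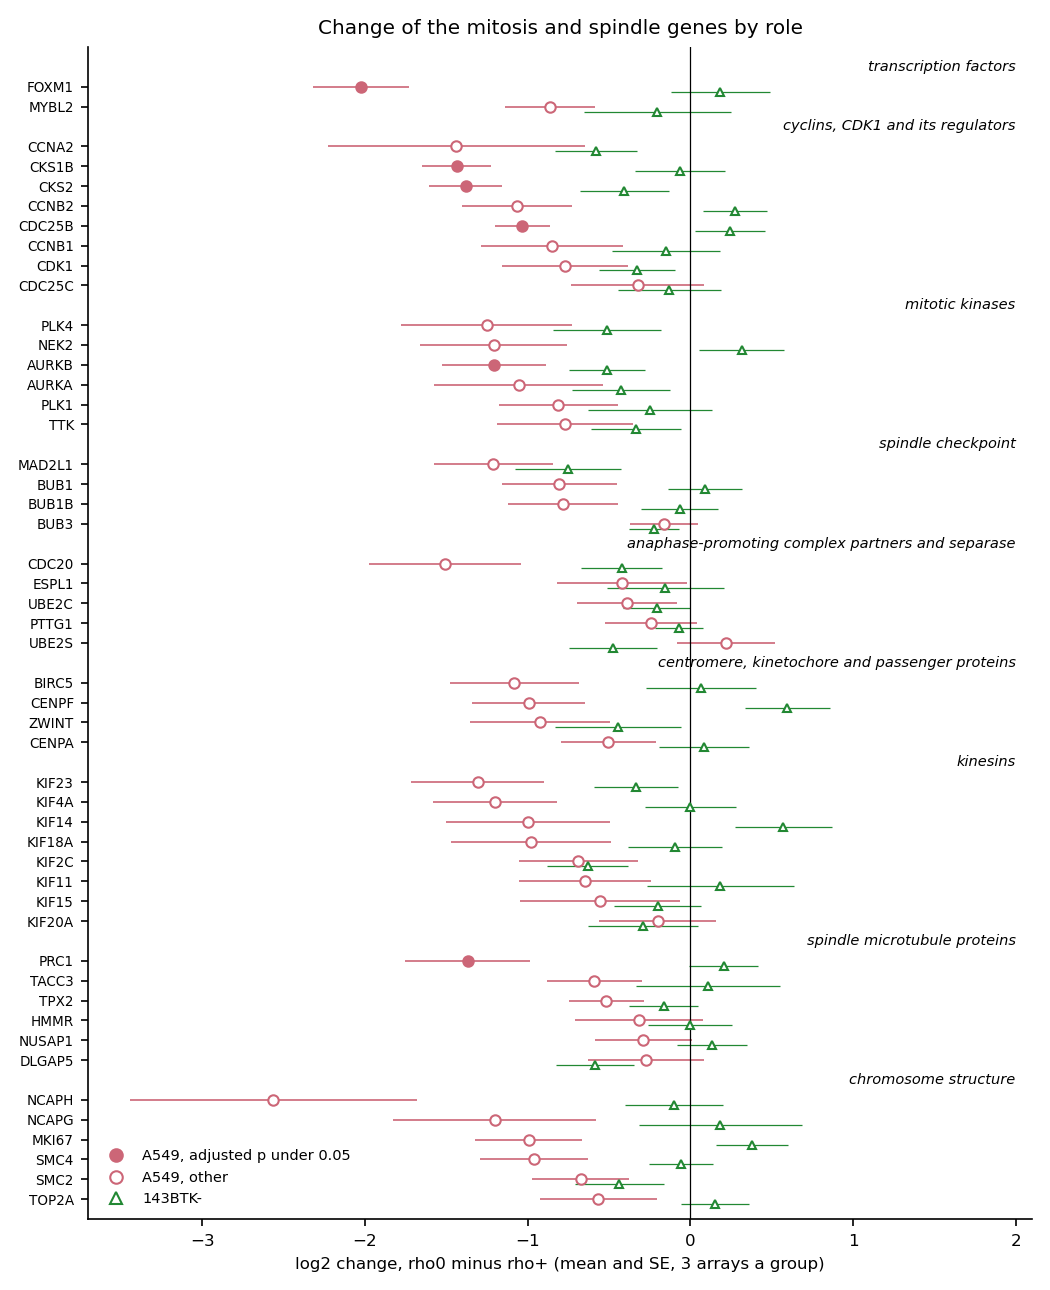
Log2 change of 49 mitosis and spindle genes (rows, grouped by role, brightest probe set) in A549 (circles, filled where the adjusted p is under 0.05) and 143BTK- (triangles), with standard errors, 3 arrays a group. In A549 48 of 49 genes lie left of 0, with a median of -0.86, and 6 circles are filled. In 143BTK- 0 genes passed, and the median is -0.12 over the 50 genes tested there, of which CENPE is not drawn.

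FOXM1, the transcription factor of G2 and M phase genes, had the largest change among the genes that fell. Its A549 signals were 378.3, 418.0 and 476.6 on the rho+ arrays A, B and C, and 75.1, 87.9 and 170.3 on the rho0 arrays. All rho0 values were well under the lowest rho+ value, and the change was -2.02 (SE 0.29, adjusted p = 0.00325), or 4.06-fold lower. The suffix of its only probe set (202580_x_at) marks probes that may also read other transcripts. In 143BTK- the signals were 334.7, 329.9 and 198.8 in rho+ and 389.9, 227.5 and 362.9 in rho0, which overlap (0.18, adjusted p = 0.897). MYBL2, the other factor, changed by -0.86 in A549 (adjusted p = 0.0747), with all 3 rho0 arrays (78.8 to 148.7) under the rho+ arrays (163.6 to 237.8), and by -0.20 in 143BTK- (adjusted p = 0.93).

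Among the cyclins, CDK1 and its regulators, 3 of 8 genes fell in A549 by their brightest probe set, CKS1B, CKS2 and CDC25B, and the changes of the 8 ran from -1.44 to -0.32. CKS1B and CKS2 are small proteins that bind cyclin-dependent kinases. CKS1B gave 1102, 1190 and 834.6 on the rho+ arrays and 356.4, 320.6 and 482.5 on the rho0 arrays of A549, a change of -1.44 (SE 0.21, adjusted p = 0.00326). The same for CKS2 was 692.9, 735.8 and 781.0 against 270.2, 215.3 and 387.2, with -1.38 (SE 0.22, adjusted p = 0.0051). The groups lay far apart for both, at 2.71-fold and 2.60-fold. In 143BTK- CKS1B overlapped between the states (243.6 to 364.9 in rho+, 203.9 to 350.7 in rho0), and CKS2 was at 478.4, 435.4 and 425.2 in rho+ and 484.9, 330.1 and 238.1 in rho0 (-0.41, adjusted p = 0.73). CDC25B, a phosphatase that activates CDK1, gave 1675, 1323 and 1404 in A549 rho+ and 771.3, 602.7 and 781.0 in rho0. That is a change of -1.03 (SE 0.17, adjusted p = 0.0055) with the smallest standard error among the 9. Its 143BTK- signals were 311.0, 245.5 and 332.2 in rho+ and 368.5, 332.0 and 342.3 in rho0 (0.24, adjusted p = 0.798). The related CDC25C changed by -0.32 in A549 (adjusted p = 0.655).

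CDK1, the kinase that starts mitosis, is read by 3 probe sets that did not give the same call. By 203213_at the A549 signals were 246.9, 234.0 and 381.7 in rho+ and 96.3, 67.8 and 152.5 in rho0, a change of -1.49 (SE 0.31, adjusted p = 0.0162). By the brightest, 210559_s_at, they were 212.0, 236.3 and 314.6 in rho+ and 146.2, 79.2 and 274.3 in rho0. There array rho0 C stood above 2 of the rho+ arrays, and the change was -0.77 (adjusted p = 0.229). The third, 203214_x_at, changed by -0.70 (adjusted p = 0.181). In 143BTK- the 3 probe sets changed by -0.20, -0.33 and -0.20, with an adjusted p of 0.746 or more. The brightest read 515.0, 541.2 and 835.2 in rho+ and 515.3, 449.8 and 508.9 in rho0. CCNB1, cyclin B1, gave 266.2, 298.2 and 537.6 in A549 rho+ and 178.7, 103.5 and 393.3 in rho0, so the states overlapped through rho0 C (-0.85, adjusted p = 0.24). In 143BTK- it was at 497.9, 624.7 and 341.1 against 632.9, 285.3 and 429.1 (-0.15, adjusted p = 0.93). CCNB2 changed by -1.07 in A549 (adjusted p = 0.0719) but in 143BTK- all rho0 arrays (494.0 to 661.5) lay above all rho+ arrays (451.2 to 463.4), at 0.27 (adjusted p = 0.752). CCNA2, cyclin A2, changed by -1.44 and -1.57 by its 2 probe sets in A549 (adjusted p = 0.271 and 0.0647). By the former (203418_at) array rho0 B read 7.5, under the lowest geometric mean signal kept in A549 (19.1).

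**Figure D3:**
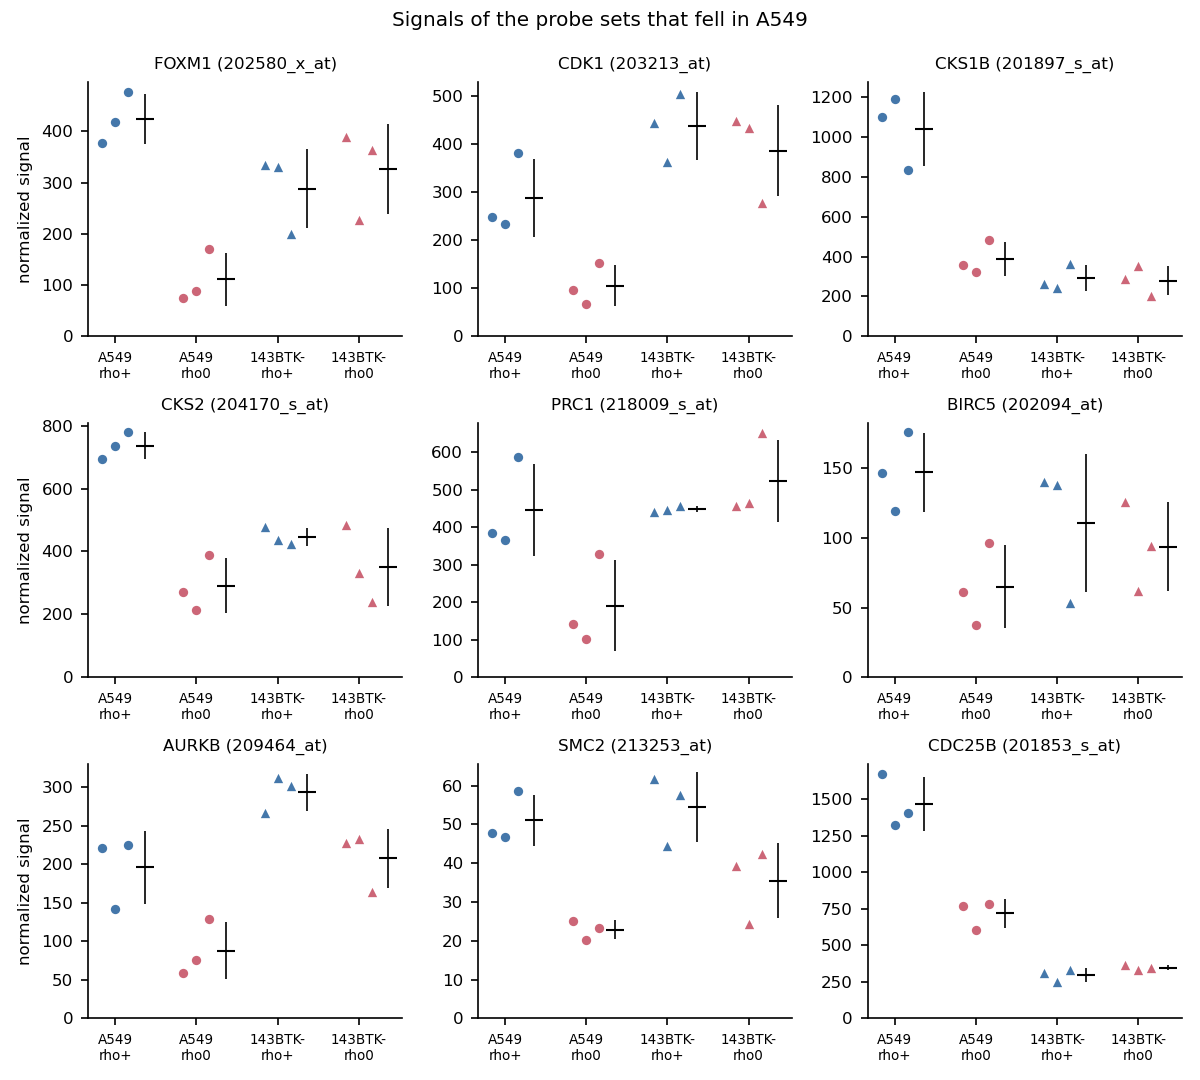
Normalized signal (linear scale from 0) of the 9 probe sets that fell in A549, on each array (points, in the order A, B and C) of rho+ (blue) and rho0 (red) cells of A549 (circles) and 143BTK- (triangles), with mean and SD of 3 arrays. In all 9 the A549 rho0 points lie under the rho+ points; in 143BTK- this holds for AURKB and SMC2 alone.

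Of the 6 mitotic kinases, AURKB fell in A549 and the changes by the brightest probe set ran from -1.25 to -0.77. AURKB is the kinase of the chromosomal passenger complex. Its A549 signals were 221.1, 141.9 and 224.6 in rho+ and 58.3, 76.0 and 129.6 in rho0, a change of -1.21 (SE 0.32, adjusted p = 0.0374). In 143BTK- it gave 266.2, 312.4 and 301.6 in rho+ and 227.3, 232.5 and 163.7 in rho0, again with no overlap, and there the change was -0.51 (SE 0.23, adjusted p = 0.611). BIRC5, survivin, another subunit of that complex, fell by 1 of its 3 probe sets in A549. By 202094_at it was at 146.0, 118.8 and 175.5 in rho+ and 60.9, 37.4 and 96.3 in rho0 (-1.26, SE 0.34, adjusted p = 0.0383). By the brightest, 202095_s_at, the change was -1.08 with no overlap (adjusted p = 0.111), and by 210334_x_at it was -0.10 (adjusted p = 0.895). The called BIRC5 probe set read 140.0, 138.0 and 53.2 in 143BTK- rho+ and 125.4, 61.7 and 93.7 in rho0, which overlap (-0.17, adjusted p = 0.941).

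When fitted without a replicate block, AURKA and PLK1, kinases of the spindle poles, did not pass in either line. With the replicate letter as a block, AURKA (208079_s_at) passed in A549 (limma, adjusted p = 0.019) and PLK1 did not (0.0818). AURKA (208079_s_at) gave 241.4, 254.7 and 823.3 in A549 rho+ and 153.5, 102.6 and 358.1 in rho0, where the C array was the highest of each state (-1.05, SE 0.52, adjusted p = 0.221). In 143BTK- AURKA was at 639.3, 824.2 and 450.2 in rho+ and 557.6, 318.2 and 549.1 in rho0 (-0.43, adjusted p = 0.745). PLK1 gave 71.9, 102.1 and 190.3 in A549 rho+ and 60.0, 48.4 and 89.0 in rho0 (-0.81, adjusted p = 0.185). Its rho0 arrays A and B lay under every rho+ array, and rho0 C did not. In 143BTK- PLK1 read 227.5, 283.9 and 101.3 against 195.5, 144.5 and 138.6 (-0.25, adjusted p = 0.89). The A549 changes of PLK4, which starts centriole duplication, NEK2, a centrosome kinase, and TTK, a checkpoint kinase, were -1.25, -1.21 and -0.77, with an adjusted p of 0.116 or more. These are of the brightest probe sets, and the other kept one of NEK2, 211080_s_at, changed by -0.15 (limma, adjusted p = 0.816).

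The spindle checkpoint gave 0 of 4 genes that passed in A549. MAD2L1, the checkpoint protein that holds CDC20, came closest at -1.21 (adjusted p = 0.0608), from 147.1 ± 43.7 in rho+ to 66.6 ± 31.5 in rho0 (SD, n = 3 arrays), without overlap. In 143BTK- it changed by -0.75 (adjusted p = 0.585), the lowest value of any member there. BUB1 and BUB1B changed by -0.81 and -0.78 in A549. BUB3 was at -0.16 by its brightest probe set, while another of its 4, 201456_s_at, read 103.1, 68.2 and 83.5 in rho+ and 177.3, 119.9 and 115.0 in rho0 (0.69, adjusted p = 0.12). Of the anaphase-promoting complex partners, CDC20, its activator, changed by -1.51 (SE 0.47, adjusted p = 0.0669), from 263.9, 252.6 and 409.3 to 113.5, 46.6 and 223.6. The ubiquitin-conjugating enzymes UBE2C and UBE2S were at -0.39 and 0.22, separase (ESPL1) at -0.42 and its inhibitor securin (PTTG1) at -0.24, with an adjusted p of 0.456 or more. UBE2S was the only gene of the 49 with a change above 0 in A549 by its brightest probe set.

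Of the kinetochore proteins, the kinesins and the spindle microtubule proteins, only PRC1 passed in A549 by its brightest probe set. PRC1 bundles the microtubules of the spindle midzone. It gave 384.3, 365.3 and 587.2 in rho+ and 141.5, 102.5 and 328.9 in rho0 (-1.37, SE 0.38, adjusted p = 0.0456). Array rho0 C came close to the rho+ arrays but did not reach them. In 143BTK- it read 440.5, 445.7 and 457.3 against 456.6, 464.2 and 649.5 (0.21, adjusted p = 0.825). The 8 kinesins changed by -1.31 to -0.20, with KIF23, the midzone motor, at -1.31 (adjusted p = 0.0682) and KIF4A, a chromosome-bound motor, at -1.20 (adjusted p = 0.0713), both without overlap. KIF2C, which depolymerizes microtubules at centromeres, changed by -0.69 in A549. In 143BTK- its rho0 values (166.9 to 276.3) were all under the rho+ values (321.5 to 365.7), with a change of -0.63 (adjusted p = 0.572). DLGAP5, a microtubule-binding spindle protein, was at -0.27 in A549 and at -0.59 in 143BTK- (adjusted p = 0.666 and 0.576). By their brightest probe sets the other spindle proteins TPX2, TACC3, HMMR and NUSAP1 lay between -0.59 and -0.29 in A549. A further probe set of HMMR (207165_at) was at -0.85 and one of NUSAP1 (219978_s_at) at 0.51 (limma, adjusted p = 0.249 and 0.463). CENPE, the kinetochore motor, was not kept in A549, where its mean signal was 29.1 in rho+ and 10.8 in rho0. The kinetochore proteins CENPF, ZWINT and CENPA changed by -0.99, -0.92 and -0.50.

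Among the chromosome structure proteins SMC2, a core subunit of condensin, fell by 1 of its 2 probe sets. By 213253_at the A549 signals were 47.8, 46.8 and 58.5 in rho+ and 25.1, 20.3 and 23.2 in rho0 (-1.16, SE 0.30, adjusted p = 0.0365), and here rho0 C was not the highest of its group. In 143BTK- the same probe set gave 61.7, 44.4 and 57.5 in rho+ and 39.4, 24.4 and 42.5 in rho0, without overlap (-0.65, SE 0.32, adjusted p = 0.634). The brighter one, 204240_s_at, changed by -0.68 in A549 with overlap (adjusted p = 0.174). NCAPH, another condensin subunit, had the lowest change of all at -2.56, from 74.8, 80.7 and 112.0 to 10.8, 3.6 and 84.2. The rho0 signals of 10.8 and 3.6 lay under 19.1, the lowest geometric mean signal kept in A549. The size of the NCAPH change thus rests on dim values. The rho0 arrays of NCAPH spread so widely (SE 0.88) that the adjusted p was 0.0917. TOP2A, the topoisomerase that untangles chromosomes, was at 258.9, 357.1 and 534.9 in A549 rho+ and 280.5, 144.0 and 376.4 in rho0 (-0.57, adjusted p = 0.344). In 143BTK- it was at 452.0, 394.9 and 491.0 against 545.8, 414.3 and 528.6 (0.15, adjusted p = 0.879). Neither line separated the states for TOP2A. MKI67, the proliferation antigen Ki-67, has 4 probe sets, whose A549 changes ran from -1.29 to -0.39 with an adjusted p from 0.0808 to 0.442. Its brightest probe set (212022_s_at) gave 111.7, 203.8 and 198.4 in A549 rho+ and 100.3, 54.0 and 105.9 in rho0, without overlap (-0.99). In 143BTK- it read 260.7, 298.2 and 262.8 in rho+ and 400.2, 292.6 and 382.6 in rho0 (0.38, adjusted p = 0.695).

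**Figure D4:**
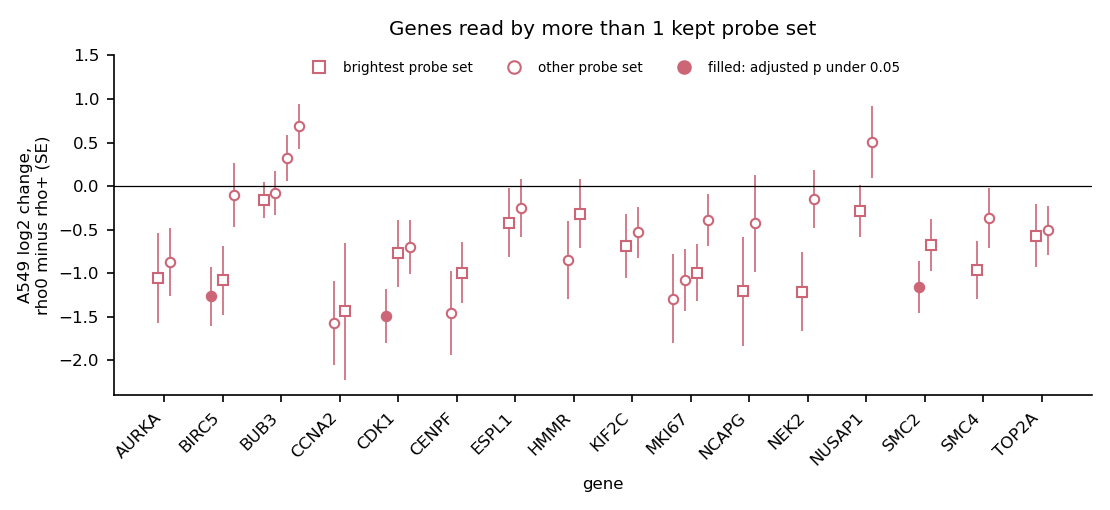
A549 log2 change with its standard error for each kept probe set of the 16 genes that have more than 1 (squares, the brightest of the gene; circles, the others; filled, adjusted p under 0.05). For 14 of the 16 all probe sets lie below 0, the exceptions being BUB3 and NUSAP1, and the filled points of BIRC5, CDK1 and SMC2 are not the brightest of their genes.

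How firmly the A549 calls held differed between the genes. FOXM1, CKS1B, CKS2 and CDC25B kept the call under all 15 alternatives run, each single array left out included. CDK1 (203213_at) had an adjusted p of 0.0711 without rho0 A and 0.0606 without rho0 B. AURKB passed without rho0 C and lost the call without any other array of A549 (0.054 to 0.148), as did BIRC5 (0.0637 to 0.123) and PRC1 (0.0741 to 0.163). SMC2 lost it without any single A549 array (0.0636 to 0.101). With no intensity trend in the fit AURKB (adjusted p = 0.0808), BIRC5 (0.0798) and PRC1 (0.103) lost the call, and with no filter on dim probe sets these 3 and SMC2 did (0.0629 to 0.0782).

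In 143BTK- 0 of 77 probe sets of the set passed, and 0 of all tested probe sets passed either (0% of them). At an unadjusted p under 0.05 limma gave 4 lower (5.19%, against 4.60% of all), CCNA2, DLGAP5, KIF2C and MAD2L1, and 1 higher (1.30%, against 3.79%), CENPF. The share below 0 was 51 of 77 probe sets (66.2%, against 50.3% of all), and the median change of the 50 genes was -0.12. All rho0 arrays lay below all rho+ arrays for 8 probe sets (10.4%, against 7.47%), of AURKB, BUB3, CCNA2, DLGAP5, KIF2C, SMC2 (both) and SMC4. They lay above for 2 (2.60%, against 7.37%), of CCNB2 and CENPF. The states were separated in the same direction in both lines for 2 of 71 probe sets, of AURKB and SMC2 (2.82%, against 1.26% of the probe sets kept in both lines), and both were lower in rho0. Without array rho0 B the median change in 143BTK- was -0.02, so that most of the shift there rested on that array.

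Averaged over the lines in a fit of all 12 arrays, all 49 genes were below 0, with a median of -0.50. The probe sets that fell were 6 of 71 (8.45%, against 1.73% of all), and 0 rose (1.97% of all). They were CKS2 (-0.89, adjusted p = 0.0188), SMC2 by 213253_at (-0.90, adjusted p = 0.034), CKS1B (-0.75, adjusted p = 0.0362), AURKB (-0.86, adjusted p = 0.0384), FOXM1 (-0.92, adjusted p = 0.0394) and CDK1 by 203213_at (-0.84, adjusted p = 0.0462), with standard errors of 0.18 to 0.23. MAD2L1 followed at -0.98 (adjusted p = 0.0549). For FOXM1 the average joins a change of -2.02 and one of 0.18, and for CKS1B one of -1.44 and one of -0.07, so the average is not the change of either line. The count fell to 0 without A549 rho0 A, A549 rho0 B or 143BTK- rho+ B and to between 1 and 4 without any other array but A549 rho0 C, without which it was 12. For these fits too the share of all probe sets is not given here.

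The A549 change lay below the 143BTK- change for 45 of 49 genes, and 62 of 71 probe sets (87.3%, against 49.4% of all). Both lines were lower in rho0 for 31 genes, and for 17 the A549 change was below 0 and the 143BTK- change above it. UBE2S alone went the other way, and 0 were higher in both. The difference itself passed for 2 of 71 probe sets (2.82%, against 0.890% of all with the A549 change lower and 1.06% with it higher, of which 0 were members). These were FOXM1, with a difference of -2.21 (SE 0.45, adjusted p = 0.0256), and CDC25B, with -1.27 (SE 0.26, adjusted p = 0.026). For FOXM1 the adjusted p was above 0.05 without A549 rho0 A (0.078), A549 rho0 B (0.064), A549 rho+ B (0.0701) or 143BTK- rho0 A (0.0709). For CDC25B it was above 0.05 without these 4 arrays, A549 rho+ A or 143BTK- rho+ B (0.0575 to 0.0709). CKS1B followed at -1.37 (adjusted p = 0.061), and the 2 kept CENPF probe sets at -1.59 and -1.99 (adjusted p = 0.0897 and 0.0913). For all genes but FOXM1 and CDC25B the 2 lines were not shown to differ. The wide errors do not show that these genes acted alike either, as for AURKA, whose difference was -0.63 with a standard error of 0.68.

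Other genes of the cell cycle were read from 5 lists. Of all tested A549 probe sets 5.20% fell and 5.66% rose, the shares against which the A549 counts below stand. The units differ, as the shares are of probe sets and the counts are of genes by the brightest probe set. A share over all genes is not given here. In A549 8 of 34 genes of DNA replication and S phase fell and 0 rose, with a median of -0.83. ORC6, a subunit of the origin recognition complex, changed by -1.74 (adjusted p = 0.00413), GINS2, a part of the replicative helicase, by -2.01 (adjusted p = 0.0274), PCNA, the sliding clamp, by -1.49 (adjusted p = 0.0151), and RRM2, a ribonucleotide reductase subunit, by -1.32 (adjusted p = 0.0498). The others were CCNE1, CHAF1A, MCM7 and RFC3. Of 32 further genes of mitosis and cytokinesis, 10 fell, with a median of -0.94. The lowest was CDC25A, at -2.65 (adjusted p = 0.00794), and the rest were ASPM, CENPN, CEP55, GMNN, KIFC1, MELK, PBK, PKMYT1 and ZWILCH. That list is not of mitosis alone, as CDC25A is the phosphatase of S phase entry. The median was nearer to 0 in cohesin and the rest of condensin (-0.28, NCAPG2 and SMC1A fell of 13) and in the subunits of the anaphase-promoting complex (-0.16, ANAPC15 fell of 9). Among the G1 cyclins, CDKs and CDK inhibitors, 0 of 13 passed (median -0.12), and CDKN1A, the p21 inhibitor, was at -0.12 (adjusted p = 0.863). In 143BTK- 0 genes of any list passed, with medians from -0.17 to 0.04. In the average of both lines PCNA (-1.25, adjusted p = 0.0215), ORC6, RRM2, CDC25A, CENPN, PBK and NCAPG2 fell. ORC6 (-1.73, adjusted p = 0.0324) and ANAPC15 (-1.57, adjusted p = 0.0442) differed between the lines.

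**Figure D5:**
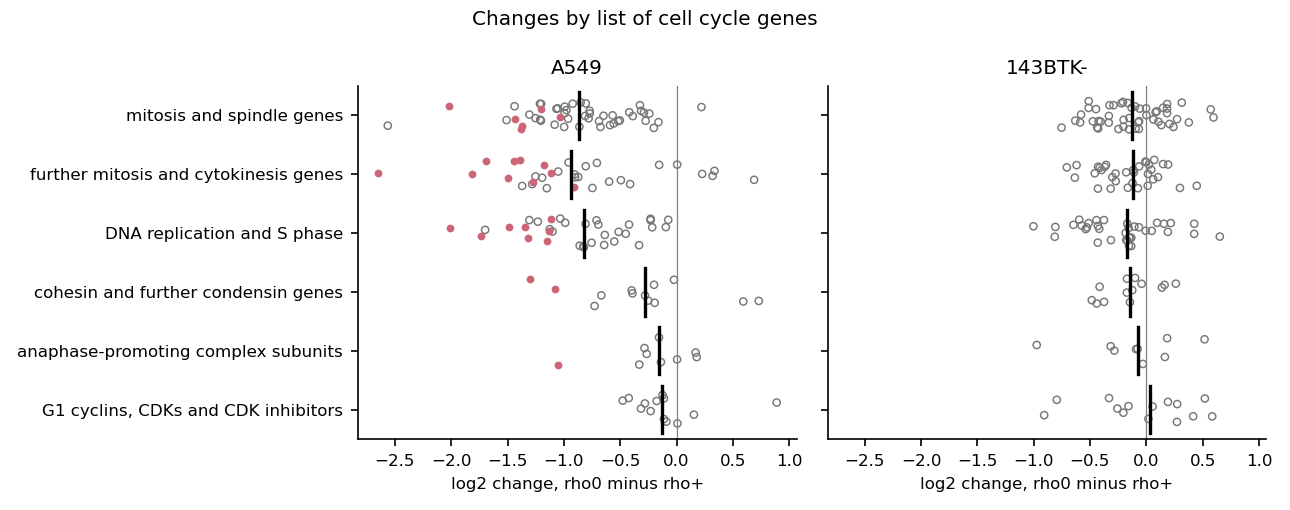
Log2 change (x axis) of each tested gene (points, filled where the adjusted p is under 0.05) of the mitosis and spindle genes and of 5 other lists (rows), in A549 (left) and 143BTK- (right), with medians as bars. In A549 the medians of the upper 3 lists lie between -0.94 and -0.83 and those of the lower 3 between -0.28 and -0.12; in 143BTK- no point is filled.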

How the data were processed

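Total RNA of 12 samples was labelled and hybridised to HG-U133A arrays. The authors computed the intensity of each probe set with MAS5 and then quantile-normalized the arrays of a line apart from the other line. The deposited values are these signals on a linear scale. No column was left out. As detection calls were not used here, the probe sets with the highest mean log2 signal in a line were kept, up to the number the study kept after removing those called Absent (lowest geometric mean signal kept 19.1 in A549 and 12.6 in 143BTK-; 12139 were kept in both). Log2 signals were compared with limma 3.58.1 (lmFit, eBayes with an intensity trend, two-sided, Benjamini-Hochberg) in R 4.3.3, by line and over all 12 arrays (4 groups). The power law error model of the study was not used, because it was fitted on other data. In the platform annotation 19071 probe sets name 1 gene (19059 matched RefSeq), 1043 several and 2169 none. One more probe set names CENPA along with another gene and was left out.

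The members and lists were chosen with earlier results of these data known. Values are given per array for members that passed in any fit, for those without overlap in both lines, and for CDK1, CCNB1, PLK1, AURKA, TOP2A and MKI67. Genes of other lists are named where they passed. Lists were written by role from general knowledge. Alternatives were a quantile normalization over 12 arrays, offsets of 16 or 64, a filter that kept all probe sets or those averaging at least 100, no trend, a replicate block, another probe set of a gene, centring by chromosome and each array left out. With 3 arrays a group, whose number limits the precision, the smallest exact permutation p within a line is 0.1. The arrays of a group are called biological replicates by the study, whose methods describe them as separate RNA extractions. Overlapping motif matches were each counted. Python 3.11.15 and matplotlib 3.10.9 drew the figures.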

Additional observations from a re-analysis of the deposited data

Results flagged for a closer look

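FOXM1 and CDC25B stood out because their changes differed between the lines in the 12-array fit: the A549 change minus the 143BTK- change was -2.21 for FOXM1 and -1.27 for CDC25B on the log2 scale. CENPF stood out by its dimmer probe set (209172_s_at), for which all A549 rho0 arrays (24.0, 8.3 and 25.8) lay below all rho+ arrays (38.7, 42.3 and 65.2), a change of -1.46, and all 143BTK- rho0 arrays (47.8 to 63.9) above all rho+ arrays (29.1 to 44.1), a change of 0.53. The test of that difference did not pass (limma, adjusted p = 0.0913). With 3 arrays a group no single array was tested as an outlier.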

How the results depend on the processing

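Directions of the counted results did not turn in any alternative. The counts that follow are of member probe sets. The share of all probe sets that passed under the same alternative is not given here, so a general rise or loss of calls is not set apart. The 9 probe sets that fell in A549 became 5 with no filter, 6 with no intensity trend, 7 with changes centred on the chromosome median, 12 with a mean signal of at least 100, 11 with 16 added and 13 with 64 added, and ranged from 4 to 25 with single arrays left out. With both A549 C arrays left out, chosen after seeing the data, 29 passed, of which 28 fell and 1 rose. The 6 of the average became 2 with no filter, 2 with no intensity trend, 3 with changes centred on the chromosome median, 0 to 12 with single arrays left out, 10 without both A549 C arrays, and 3 without the 143BTK- rho+ C and rho0 B arrays. The 2 of the difference between the lines became 0 with no intensity trend, 0 to 7 with single arrays left out and 8 without both A549 C arrays. In 143BTK- the count was 0 in every alternative run. With the replicate letter as a block (replicate block) 23 probe sets fell in A549, 0 passed in 143BTK-, 7 fell in the average and 3 in the difference. AURKA (208079_s_at, adjusted p = 0.019), CDC20 (0.02), CCNB2 (0.0267), MAD2L1 (0.035) and NCAPH (0.0422) were among the 23, and SMC2 (213253_at, 0.0544) was not. The letters were not taken as pairs, since over all kept probe sets arrays of the same letter deviated together by r = 0.0543 to 0.107 in A549 and -0.106 to 0.359 in 143BTK-. Over the member probe sets r was 0.146 to 0.307 in A549 and -0.295 to 0.47 in 143BTK-, and every A549 array correlated best with its own letter, a hint from the data and not from the design. The cause of these shifts was not tested. Medians of low genes are pulled toward 0 by an added constant: the A549 median was -0.70 with 16 added and -0.46 with 64. Members kept only in 143BTK- and the 6 probe sets kept in neither line were too dim to compare in A549.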
